A study of Mus musculus with 11 samples.

Results

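Small nucleolar RNA host genes are transcribed into RNAs whose introns hold small nucleolar RNAs (snoRNAs). The set described here holds 10 of them, Snhg1, Snhg3, Snhg5, Snhg6, Snhg7, Snhg12, Snhg15, Snhg16, Snhg17 and Dancr, among 25082 genes or unnamed features tested. They were chosen by name from the measured log2 differences between 0 h, 48 h and 96 h on these same arrays, and their probes were found by matching the accession of each probe to RefSeq. All 10 genes had a probe, 11 probes in all, and each of the 11 probes was well above background on 11 of 11 arrays. The list was drawn up to set members that were lower after treatment against Snhg3 and Dancr, so the differences between time points below are a description of the members. Where a member is said to be called or past the threshold, that too describes the fit across all features, is no test of the member, and supports nothing. The other gene lists were also chosen with earlier results of these data known. Their counts and adjusted p-values below describe the fit in the same way.

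Introns cut from these transcripts are trimmed to box C/D snoRNAs, which guide methylation of ribosomal RNA, or box H/ACA snoRNAs, which guide its pseudouridylation. The spliced exons that remain carry no long reading frame. For several hosts, Snhg1 among them, the spliced RNA is engaged by ribosomes and removed by nonsense-mediated decay. Many hosts also belong to the 5′ terminal oligopyrimidine class, whose transcripts begin with a run of C and T like those of ribosomal protein genes. The level of a spliced host RNA on an array therefore reports the exons and not the snoRNAs.

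The cells were L-GMP cells, leukaemic progenitors of the granulocyte and macrophage lineage, carrying the MLL-AF9 fusion. They were C57BL/6 lines with floxed Jmjd2a, Jmjd2b and Jmjd2c (Kdm4a, Kdm4b and Kdm4c, histone demethylase genes) and Rosa26::CreERT2, a Cre recombinase that 4-hydroxytamoxifen activates and that is not restricted to a cell type. Per the series description, 4 such lines came from leukaemic mice. Total RNA was taken at 0 h, before the drug (4 arrays), and after 48 h (4 arrays) and 96 h (3 arrays) in 500 nM 4-hydroxytamoxifen, all in RPMI with 20% serum and 10 ng/ml IL-3. The 0 h, 48 h and 96 h arrays all carried the floxed alleles and Cre. Deletion of the 3 genes, Cre activity, the drug and time in culture cannot be told apart.

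Each array was a 1-colour Agilent array of 62976 spots, and the 75th percentile of its signal lay between 108.4 and 293.9. Values below are scaled log2 signals, the log2 of the processed signal less that percentile of the array, so a value of 0 lies at the percentile and 1 unit is a doubling. Signals of different probes are not levels that can be set against each other. The 0 h and 48 h arrays shared slide 1 and the 96 h arrays were on slide 2, so slide and the 96 h time cannot be told apart. The floxed genes were lower at 48 h, with 33.1% of the 0 h signal left for Kdm4a, 10.2% for Kdm4b and 3.24% for Kdm4c. At 96 h, 43.6% was left for Kdm4a, more than at 48 h, 10.55% for Kdm4b and 4.13% for Kdm4c. Of 10 markers of granulocyte-macrophage progenitors and their granules, 10 were well above background on every array. That does not mean a steady level. Mpo, 1 of them, was higher than at 0 h by 4.33 (SE 0.52) at 48 h and by 5.18 (SE 0.56) at 96 h, both past the threshold. The other 9 passed it at neither time. Among markers of erythroid, lymphoid and stromal cells, Hbb-b1, Pdgfra and Cdh5 were above background on no array, and Cd3e and Cd79a on every array. In such bulk RNA, fewer cells of a kind and less RNA per cell cannot be told apart.

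RefSeq's promoter table held 9 of the 10 members. The 4 members with the largest falls at 48 h and the 2 members set against them are shown as 100 bases of assembly GRCm38.p6 each, on the strand of the gene, 50 bases before RefSeq's start and the first 50 transcribed bases. Capitals mark the longest run of C and T among those transcribed bases, whether or not it lies at the very start, as it does in the oligopyrimidine class.
Snhg12 (chr4:132308628-132308727, + strand): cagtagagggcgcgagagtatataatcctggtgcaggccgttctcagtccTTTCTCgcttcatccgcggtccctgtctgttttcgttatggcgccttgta
Snhg1 (chr19:8723437-8723536, + strand): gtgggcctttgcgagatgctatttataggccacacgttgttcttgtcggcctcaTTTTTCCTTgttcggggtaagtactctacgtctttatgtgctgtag
Snhg16 (chr11:116671610-116671709, + strand): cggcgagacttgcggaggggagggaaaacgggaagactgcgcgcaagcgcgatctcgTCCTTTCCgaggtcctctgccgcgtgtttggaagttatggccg
Snhg5 (chr9:88522848-88522947, - strand): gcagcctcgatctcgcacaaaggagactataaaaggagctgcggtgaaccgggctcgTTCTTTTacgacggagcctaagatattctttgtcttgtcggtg
Snhg3 (chr4:132353637-132353736, - strand): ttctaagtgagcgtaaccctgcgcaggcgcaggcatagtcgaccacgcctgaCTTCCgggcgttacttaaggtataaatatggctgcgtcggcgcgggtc
Dancr (chr5:74093010-74093109, + strand): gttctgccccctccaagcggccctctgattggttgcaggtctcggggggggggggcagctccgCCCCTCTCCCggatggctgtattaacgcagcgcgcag

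The run in Snhg12 began at the first transcribed base, and was 6 bases long, a length that 42.1% of all 32851 promoters reached. It was 9 bases in Snhg1 (11.4% of promoters had one as long), 8 in Snhg16 (17.4%), 7 in Snhg5 (27.4%), 5 in Snhg3 (63.2%) and 10 in Dancr (7.54%). The run began at transcribed base 5 in Snhg1, 8 in Snhg16, 8 in Snhg5, 3 in Snhg3 and 14 in Dancr. Motifs were searched on both strands of the 300 bases from 250 before to 50 after the start. TATAAA, the letters of a TATA box, was in the windows of Snhg1, Snhg3, Snhg5 and Snhg7 (4 of 9 members, 13.6% of all promoters). A match on either strand and at any place was counted, so it need not be a working TATA box. In the bases shown, the match of Snhg3 lies after the start, and that of Snhg1 is on the opposite strand. CACGTG, an E-box, and TGACGTCA, a cyclic AMP response element, were in the window of Snhg15 (7.15% and 1.79% of all promoters). TGATGCAA, bound by pairs of C/EBP and ATF factors, was in no member's window (0.895% of all promoters). The 300 base windows were compared by letters alone.

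At 48 h, Snhg12, Snhg1, Snhg16 and Snhg5 were lower than before the drug by log2 differences between -3.78 and -2.26, and Snhg3 was higher by 1.05. Snhg7 and Snhg6 were lower by less than 1 unit. In the limma fit across all features with Benjamini-Hochberg adjustment, 7 of the 10 members had an adjusted p under 0.05, beside 18.6% of all features. Of these, 6 had a lower signal, beside 8.02% of all features, and 1 a higher one, beside 10.5%. Every 48 h array was below every 0 h array for 5 members, beside 9.82% of all features, and above for 1, beside 14.1%. The median difference was -0.75 over the members and 0.12 over all features. Because the members were listed with these values known, nothing is read from that contrast.

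**Figure D1:**
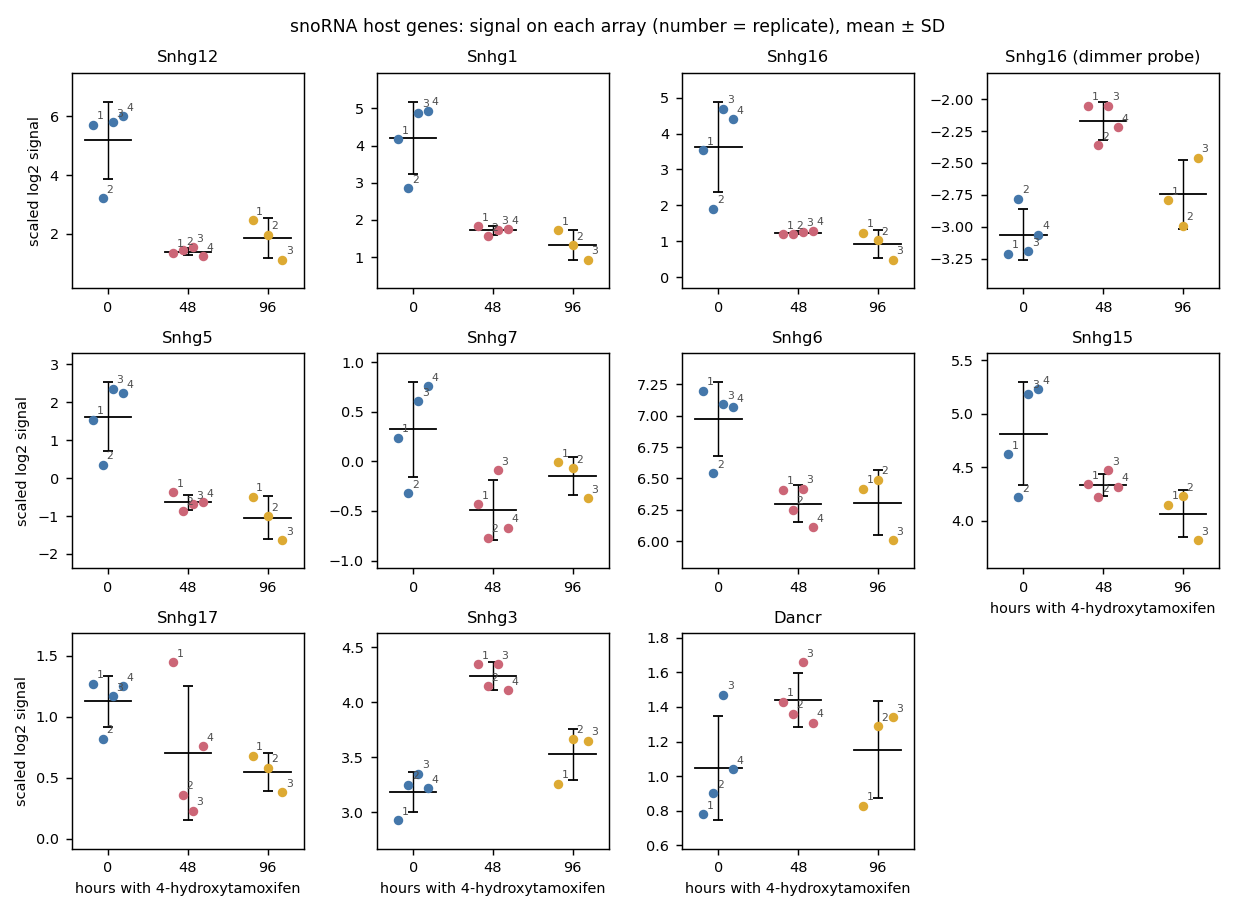
Scaled log2 signal (y axis) of the 10 snoRNA host genes and of the dimmer Snhg16 probe at 0, 48 and 96 h with 4-hydroxytamoxifen (x axis), 1 point per array numbered by replicate, with the mean (line) and SD (error bar); each panel has its own y range. Snhg12, Snhg1, Snhg16 and Snhg5 are lower on every treated array than on any 0 h array, Snhg3 is higher on all 4 arrays of 48 h, and 0 h replicate 2 lies low in the panels of the falling genes.

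Snhg12 carries Snora16a, Snora44, Snora61 and Snord99 in its introns. Its probe (A_66_P100249) read 5.71, 3.21, 5.79 and 6.00 on 0 h replicates 1 to 4, 1.36, 1.45, 1.55 and 1.25 at 48 h, and 2.46, 1.98 and 1.12 at 96 h. Every treated array lay below every 0 h array, and the lowest of the untreated arrays, replicate 2, stood between the others and the treated arrays. The signal fell 13.7-fold by 48 h (-3.78, SE 0.56) to 7.30% of its start, and was 10.0-fold lower at 96 h (-3.33, SE 0.60). The 48 h and 96 h arrays overlapped.

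Snhg1 hosts 8 snoRNAs in RefSeq's intervals, among them Snord22. Its probe (A_55_P2117710) read 4.17, 2.85, 4.88 and 4.94 at 0 h, 1.83, 1.56, 1.74 and 1.75 at 48 h, and 1.72, 1.32 and 0.93 at 96 h. No treated array reached the lowest untreated one, again replicate 2. The difference was -2.49 (SE 0.40, 5.62-fold) at 48 h and -2.89 (SE 0.44, 7.39-fold) at 96 h, and the later difference of -0.39 (SE 0.44) between 48 h and 96 h was smaller than its error.

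Snhg16 hosts the box C/D RNAs Snord1a, Snord1b and Snord1c, and was the only member with more than 1 probe. The brighter probe (A_55_P2126448) read 3.54, 1.90, 4.69 and 4.40 at 0 h, 1.20, 1.19, 1.26 and 1.29 at 48 h, and 1.23, 1.03 and 0.48 at 96 h, differences of -2.39 (SE 0.50) and -2.72 (SE 0.54). The call at 96 h was lost without 96 h replicate 2 or 96 h replicate 3. The dimmer probe (A_55_P2126444), assigned to the same RefSeq accession, moved the other way. It read -3.21, -2.78, -3.19 and -3.06 at 0 h, -2.05, -2.36, -2.05 and -2.22 at 48 h, and -2.79, -2.99 and -2.46 at 96 h, differences of 0.89 (SE 0.15) and 0.32 (SE 0.16). Both probes were well above background on every array, and which transcript or exon each one reads is not given in the sources used here. The direction of Snhg16 therefore rests on the brighter probe, and with the mean of both probes the difference at 48 h was -0.75.

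Snhg5 hosts 2 snoRNAs. Its probe (A_55_P2133568) read 1.54, 0.35, 2.35 and 2.23 at 0 h, -0.37, -0.86, -0.69 and -0.63 at 48 h, and -0.49, -1.0 and -1.63 at 96 h. The groups before and after the drug did not overlap. The difference was -2.26 (SE 0.41) at 48 h and -2.66 (SE 0.44) at 96 h.

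Snhg6, the host of Snord87, had the smallest of the 5 non-overlapping falls at 48 h. Its probe (A_66_P122415) read 7.20, 6.54, 7.09 and 7.07 at 0 h, 6.41, 6.25, 6.42 and 6.11 at 48 h, and 6.42, 6.49 and 6.01 at 96 h. It fell by 0.68 (SE 0.17) and 0.67 (SE 0.18), with the untreated replicate 2 only just above the highest treated array. The 48 h call was lost without 0 h replicate 1, 3 or 4 or 48 h replicate 4. The call at 96 h was lost in 13 of 23 alternative settings, each left-out array other than 0 h replicate 2 among them.

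Snhg7, the host of the box H/ACA RNAs Snora17 and Snora43, overlapped between groups. Its probe (A_52_P199776) read 0.24, -0.32, 0.61 and 0.76 at 0 h, -0.43, -0.77, -0.09 and -0.67 at 48 h, and -0.01, -0.07 and -0.37 at 96 h. The difference of -0.81 (SE 0.24) at 48 h was past the threshold, and that at 96 h, -0.47 (SE 0.26), was not. With the replicate number of the titles as a block, which pairs arrays of like number at 0 h and 48 h, the 48 h difference was the same -0.81 and was no longer past it. That block also joins the 96 h arrays, whose title numbers did not pair. With the numbers in the file names as the block, the 48 h difference stayed past the threshold. The call was lost in 12 of 23 alternative settings in all.

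Snhg15 and Snhg17 were lower on average and passed the threshold at neither time. The Snhg15 probe (A_55_P1961302) read 4.62, 4.22, 5.19 and 5.23 at 0 h, 4.34, 4.22, 4.47 and 4.32 at 48 h, and 4.15, 4.23 and 3.82 at 96 h, differences of -0.48 (SE 0.21) and -0.75 (SE 0.23). Untreated replicate 2 was as low as the treated arrays. Without that array the differences were -0.68 and -0.95 and both passed. The 96 h difference of Snhg15 also passed with median scaling, with normexp correction, in the authors' deposited table, with the strict filter on dim probes and with arrays paired by the numbers in their file names, and the 48 h difference with normexp correction. The Snhg17 probe (A_55_P2034784) read 1.27, 0.82, 1.17 and 1.25 at 0 h, 1.45, 0.36, 0.23 and 0.76 at 48 h, and 0.68, 0.58 and 0.38 at 96 h, differences of -0.43 (SE 0.24) and -0.58 (SE 0.26). Replicate 1 at 48 h was above all 0 h arrays while the other 48 h arrays were below them, so Snhg17 had the widest 48 h spread of any member (SD 0.55). Without that array the 48 h difference of Snhg17 was -0.68 and passed, and with median scaling the 96 h difference passed.

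Snhg3 hosts Snora73a and Snora73b, box H/ACA RNAs that take part in cleavage of the ribosomal RNA precursor. Its probe (A_52_P661071) read 2.93, 3.25, 3.35 and 3.22 at 0 h, 4.35, 4.15, 4.35 and 4.11 at 48 h, and 3.26, 3.67 and 3.65 at 96 h. All 48 h arrays were above all others, and the 96 h arrays overlapped the untreated ones. The signal rose 2.07-fold by 48 h (1.05, SE 0.13), was 0.34 (SE 0.14) above its start at 96 h, which did not pass the threshold, and fell by 0.71 (SE 0.14) between 48 h and 96 h. That last fall lost its call without 96 h replicate 1 (-0.58) and with each array's median as the reference (-0.45).

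Dancr, a noncoding RNA named for holding back differentiation, hosts Snora26. Its probe (A_55_P2095118) read 0.78, 0.90, 1.47 and 1.04 at 0 h, 1.43, 1.36, 1.66 and 1.31 at 48 h, and 0.83, 1.29 and 1.34 at 96 h. The groups overlapped at every step. The difference was 0.39 (SE 0.17) at 48 h and 0.11 (SE 0.19) at 96 h, neither past the threshold. In 1 of 23 alternative settings, the authors' deposited table, the 48 h difference of Dancr was 0.42 and passed. At 96 h the sign of both genes set apart depended on scaling: with each array's median as the reference, which moved the median of all features from 0.11 to -0.28, Snhg3 stood at -0.05 and Dancr at -0.28.

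**Figure D2:**
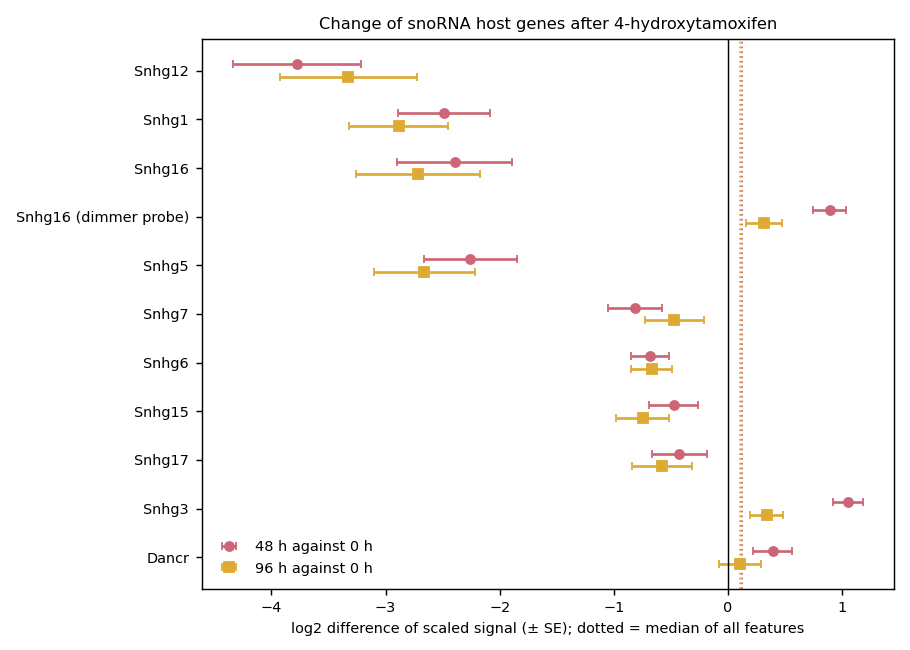
Log2 difference of the scaled signal (x axis, points with SE bars) of each member (y axis) at 48 h (circles) and 96 h (squares) against 0 h, with the median of all features as dotted lines. Snhg12 is farthest to the left at -3.78 and -3.33, 8 members lie left of 0 at both times, and Snhg3, Dancr and the dimmer Snhg16 probe lie to the right.

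At 96 h against 0 h, 5 members were lower with an adjusted p under 0.05 (Snhg12, Snhg1, Snhg16, Snhg5 and Snhg6), beside 3.38% of all features, and 0 were higher, beside 6.17%, or 9.55% in both directions. That count of 5 was 3 without 96 h replicate 2 and 3 without 96 h replicate 3. All features called lower went from 848 of 25082 to 221 and 230 in these fits. Every 96 h array was below every 0 h array for 6 members, those and Snhg17, beside 8.69% of all features, and above for 0, beside 16.4%. Both comparisons use the same 0 h arrays, so the likeness of their values is not a repeat. Between 48 h and 96 h, 1 member was called, Snhg3, which was lower, beside 5.95% of features called lower, 5.17% called higher and 11.1% in all. It was also the 1 member whose 96 h arrays were all below the 48 h arrays, beside 13.6% of all features, with 0 members above, beside 14.2%. The other 9 differed by -0.41 to 0.45 between the treated times and their groups overlapped.

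Ratios within an array do not change when 1 value is subtracted from all log2 signals of that array. They can change with quantile normalization or normexp correction. Relative to Snhg3 on the same array, the 48 h difference was -4.83 (SE 0.69) for Snhg12, -3.54 (SE 0.49) for Snhg1, -3.44 (SE 0.62) for Snhg16 and -3.30 (SE 0.46) for Snhg5. It ran from -1.86 to -1.47 for Snhg7, Snhg6, Snhg15 and Snhg17, and was -0.66 (SE 0.11) for Dancr. The 0 h and 48 h arrays overlapped for none of these 9 ratios, but Snhg3 itself did not overlap between these times either. How often the ratio of any other feature to Snhg3 overlapped was not counted, so nothing is read from that count. Relative to Dancr, the differences were -4.17 (SE 0.63) for Snhg12, -2.88 (SE 0.43) for Snhg1, -2.78 (SE 0.55) for Snhg16 and -2.65 (SE 0.40) for Snhg5. The ratio of Snhg17 to Dancr overlapped between 0 h and 48 h (-0.82, SE 0.35). These ratios restate the choice of the members and show unequal change, not that Snhg3 or Dancr stood still.

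By replicate number, Snhg12 differed between 0 h and 48 h by -4.36, -1.75, -4.25 and -4.75. Snhg1 differed by -2.34, -1.29, -3.13 and -3.20, and Snhg16 by -2.34, -0.70, -3.43 and -3.10. Snhg3 differed by 1.42, 0.89, 1.0 and 0.89. All 4 numbers moved the same way for these genes, and number 2 moved least for the falling ones.

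The untreated arrays themselves were spread widely for the members that fell most. The SD over 0 h arrays was 1.32 for Snhg12, 1.26 for Snhg16, 0.97 for Snhg1 and 0.92 for Snhg5, against 0.13, 0.05, 0.12 and 0.20 at 48 h. For Snhg3 the SD was 0.18 and 0.13, a spread alike before and after the drug. The array that set this spread was 0 h replicate 2, the lowest untreated array for 8 of the 10 members.

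Compared with the mean of the other untreated arrays, 0 h replicate 2 deviated by -2.63 for Snhg12, -2.31 for Snhg16, -1.81 for Snhg1 and -1.69 for Snhg5. It deviated by -0.85 for Snhg7, -0.80 for Snhg15, -0.58 for Snhg6 and -0.41 for Snhg17. For Snhg3 it deviated by 0.08 and for Dancr by -0.20, where replicate 1 was the lowest. Over all tested features its mean correlation with the other 0 h arrays was 0.9863, in a range of 0.9842 to 0.9875 for the group. These values were not centred per gene, so the correlation mostly reflects differences between genes and cannot show a shift of this array. Without 0 h replicate 2, the 48 h differences were -4.43 for Snhg12, -2.94 for Snhg1, -2.97 for Snhg16 and -2.68 for Snhg5, and at 96 h -3.98 for Snhg12. Then 7 members were called lower at 48 h, beside 2461 of 25082 features, where all arrays gave 6 and 2012. Over all features, leaving out 0 h replicate 1, 3 or 4 instead gave 1340, 1137 and 1119 lower. The effect of 0 h replicate 2 on calls was therefore not particular to the members. What set this array apart for these genes was not tested.

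**Figure D3:**
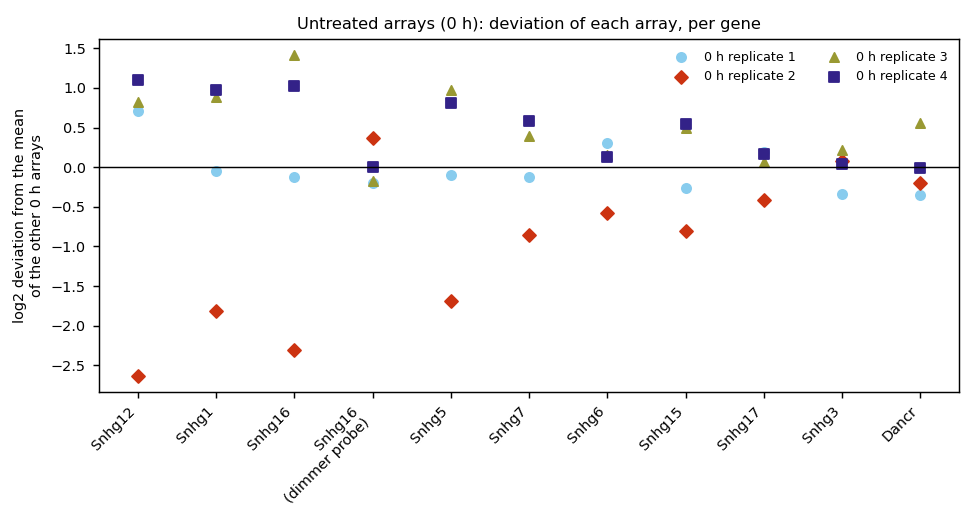
Deviation of each untreated array from the mean of the other 0 h arrays (y axis, log2) for each member (x axis), 1 symbol per replicate. Replicate 2 (red diamonds) lies at -2.63 for Snhg12 and below the rest for 8 members, and within 0.20 of 0 for Snhg3 and Dancr.

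RefSeq's intervals place 26 snoRNAs inside the 10 members, from 1 in Snhg6, Snhg15 and Dancr to 8 in Snhg1. None of the 26 had a probe, so the arrays hold no reading of the guide RNAs themselves. A list of 11 other noncoding hosts gave 1 tested gene, Snhg10, with a difference of 0.18 (SE 0.14) at 48 h (adjusted p = 0.409 by limma with Benjamini-Hochberg adjustment).

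Of 43 snoRNA hosts that also encode a protein, 3 were lower, beside 8.02% of all features, and 1 was higher, beside 10.5%, at 48 h, with a median of 0.06 beside 0.12 for all features. The mitochondrial chaperone gene Hspa9 fell by 1.01 (SE 0.16, adjusted p = 0.0048), and Ccar1, a transcriptional coactivator, by 0.61 (SE 0.14, adjusted p = 0.0149). Wdr43, whose protein acts in small subunit processing, fell by 0.45 (SE 0.11, adjusted p = 0.0185), and the chaperone gene Hspa8 rose by 0.71 (SE 0.13, adjusted p = 0.00672). Without 0 h replicate 2 the count lower was 5, and with normexp correction or in the authors' deposited table it was 9. All features called lower numbered 2461, 3587 and 2687 in these settings, against 2012. At 96 h against 0 h, 3 were lower, beside 3.38% of all features. These were Ipo7 (-0.67, SE 0.11, adjusted p = 0.0105), Wdr43 (-0.47, SE 0.11, adjusted p = 0.0325) and Rnf149 (-0.40, SE 0.11, adjusted p = 0.0473). The call of Wdr43 at 48 h was lost without 0 h replicate 3, 0 h replicate 4 or 48 h replicate 1, its call at 96 h with any 1 array of 96 h or 0 h replicate 1, 3 or 4 left out, and that of Rnf149 with any 1 array other than 0 h replicate 2 left out. Hspa8 at 48 h was not called with each array's median as the reference. With the replicate block, Wdr43 and Rnf149 at 96 h were not called. That block uses the title numbers, which did not pair at 96 h. With it, 1 of the 43 was lower at 96 h, beside 441 of 25082 features. With the numbers in the file names, 12 of the 43 were lower at 96 h, beside 1366. Between 48 h and 96 h, 13 of the 43 were lower, beside 5.95% of all features, among them Hspa8 (-0.61, SE 0.14, adjusted p = 0.0216) and Ipo7 (-0.59, SE 0.11, adjusted p = 0.0108). That 13 was 1 without 96 h replicate 1, 4 without 96 h replicate 3, 4 without 48 h replicate 4, 8 without 48 h replicate 3, and 1 under median or quantile scaling. In that order, all features called lower numbered 586, 744, 760, 1126, 762 and 1453, against 1493.

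Genes for the proteins that bind snoRNAs in snoRNPs were mostly not called. Of the 4 box C/D core genes (Fbl, the methyltransferase, Nop56, Nop58 and Snu13), 0 were called by limma at either time, with medians of -0.17 at 48 h and -0.41 at 96 h. At an unadjusted p under 0.05, 1 and 3 of the 4 were lower, beside 8705 and 7158 of 25082 features in either direction. Without 0 h replicate 2, 1 of the 4 core genes was called lower at 48 h and 2 at 96 h, beside 2461 and 1335 of all features. With the values of the authors' deposited table, 3 were called lower at each time, beside 2687 and 1284. Of the 4 box H/ACA core genes, Nop10 rose by 0.45 at 48 h (SE 0.13, adjusted p = 0.0327), a call lost with the replicate block and when any 1 of 6 arrays was left out (0 h replicates 1, 3 and 4 and 48 h replicates 1, 3 and 4), and the other 3, Dkc1, Gar1 and Nhp2, were not called. Of 14 genes of snoRNP assembly and snoRNA maturation, limma called 0 at either time, with medians of 0.02 and 0.13. At an unadjusted p under 0.05, 2 of the 14 were lower and 2 higher at 48 h, and 1 lower and 3 higher at 96 h. Over all 25082 features, 8705 at 48 h and 7158 at 96 h had such a p in either direction, so nothing is read from these counts.

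Genes of nonsense-mediated decay, the route that removes several spliced host RNAs, were on average lower at 48 h. Of 20 tested, 9 were lower, beside 8.02% of all features, and 0 higher, beside 10.5%, with a median of -0.37 beside 0.12 for all features. Because the list was chosen with earlier results known, this is a description and no test. Magohb, a paralogue of the exon junction complex gene Magoh, fell by 0.95 (SE 0.12, adjusted p = 0.00199) and by 96 h had fallen by 1.79 (SE 0.13, adjusted p = 3.23e-04). Nbas fell by 0.70 (SE 0.12, adjusted p = 0.00525) and Upf3b by 0.70 (SE 0.15, adjusted p = 0.0148), and the kinase gene Smg1 by 0.61 (SE 0.15, adjusted p = 0.0228). The call of Smg1 was lost without 48 h replicate 1, without 48 h replicate 4 and with the replicate block. At 96 h, Magohb and Pnrc2 (-0.43, SE 0.09, adjusted p = 0.0239) of the 20 were lower, beside 3.38% of all features, and Pnrc2 lost its call there with any 1 array of 96 h left out, without 0 h replicate 3 or 4 and with the replicate block. The count of 9 at 48 h was 5 without 0 h replicate 4, 5 without 48 h replicate 1 and 4 without 48 h replicate 4, and 14 with normexp correction. All features called lower then numbered 1119, 1194, 1055 and 3587, against 2012. At 96 h, 4 of the 20 were lower with arrays paired by file-name numbers, beside 1366 of 25082 features. With the replicate block 1 was lower, beside 441. Whether these genes and the host RNAs are linked was not tested.

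**Figure D4:**
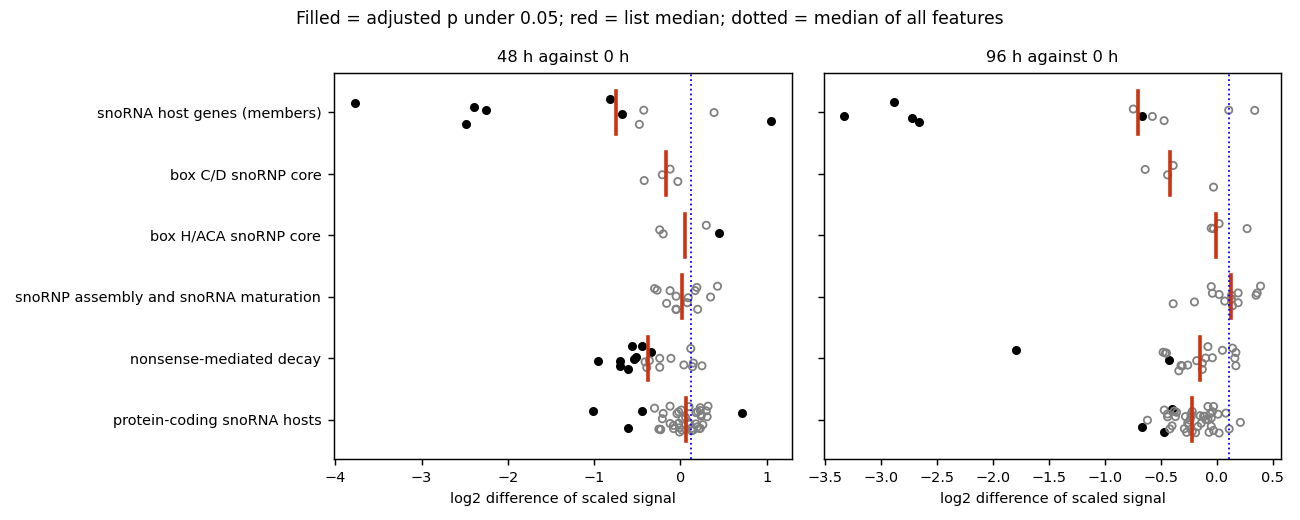
Log2 difference of the scaled signal (x axis) at 48 h (left) and 96 h (right) against 0 h for the members and for the genes of each list (y axis), 1 point per gene, filled where the adjusted p was under 0.05, with the list's median in red and the median of all features dotted. The members spread from -3.78 to 1.05 at 48 h while the protein-coding hosts have a median of 0.06.

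Genes beside the members in RefSeq's gene table, within 5 kb, were looked at on the same arrays; that window was chosen after the values were seen, since the rule set at the start gave Mcmdc2 alone, which overlaps Snhg6 and did not pass the filter on dim probes. Slc3a2, the heavy chain of a large amino acid transporter, lies beside Snhg1 and fell by 0.93 at 48 h (SE 0.15, adjusted p = 0.00525) and by 0.79 at 96 h (SE 0.17, adjusted p = 0.0219). Its values were 6.35, 6.37, 6.55 and 6.34 at 0 h and 5.56, 5.56, 5.45 and 5.34 at 48 h, with no low untreated replicate 2 like that of Snhg1. Trnau1ap, beside Snhg12 and an associate of the selenocysteine tRNA, did not pass at 48 h (0.10, SE 0.08, adjusted p = 0.4). Beside Snhg15, the myosin gene Myo1g fell by 0.37 (SE 0.11, adjusted p = 0.0395). Beside Snhg16, Prcd rose by 0.54 (SE 0.14, adjusted p = 0.0228), against the direction of the brighter Snhg16 probe and with that of the dimmer one, while St6galnac2 was not called at -0.08 (SE 0.17, adjusted p = 0.781). Beside Snhg7, Dipk1b rose by 0.35 (SE 0.10, adjusted p = 0.0361), and Phactr4, beside Snhg3, did not pass (-0.35, SE 0.11, adjusted p = 0.0546). The 48 h calls of Myo1g and Dipk1b were lost with the replicate block and in 12 and 10 of 23 settings, and that of Prcd without 0 h replicate 1, 0 h replicate 3 or 48 h replicate 4. The call of Slc3a2 at 96 h was lost without 0 h replicate 3, 96 h replicate 2 or 96 h replicate 3.

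Tested genes with a symbol were ranked by how near their profile over the 11 arrays, centred on the gene's mean, came to that of a member, as the root mean square distance in log2 units. Nearest to Snhg12, whose own profile had a root mean square of 1.89 about its mean, were Akr1b7 (0.51), the basement membrane collagen gene Col4a1 (0.60) and the stress-induced gene Nupr1 (0.61). Akr1b7, an aldo-keto reductase gene, read 1.88, -0.49, 0.73 and 1.70 at 0 h and -2.92, -1.61, -2.22 and -2.17 at 48 h. Its lowest untreated array was replicate 2, as for Snhg12, but that array was part of the profile by which Akr1b7 was picked. Nearest to Snhg1 (1.40) were Egf (0.47), Insm1 (0.48) and Tspyl4 (0.49). Egf was well above background on 6 of 11 arrays and on none at 48 h.

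Nearest to Snhg3 (0.48) were Triobp (0.16), E330020D12Rik (0.17) and Plac8 (0.18). Triobp, an actin-binding protein gene, read 1.63, 1.72, 1.62 and 1.63 at 0 h, 2.41, 2.55, 2.55 and 2.48 at 48 h, and 1.72, 1.98 and 1.97 at 96 h, the same rise at 48 h and return. Nearest to Dancr (0.27) were the glutathione reductase gene Gsr (0.12), the recombination repair gene Xrcc3 (0.12) and Intu (0.14). A small distance is easily reached for a profile that varies as little as that of Dancr.

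**Figure D5:**
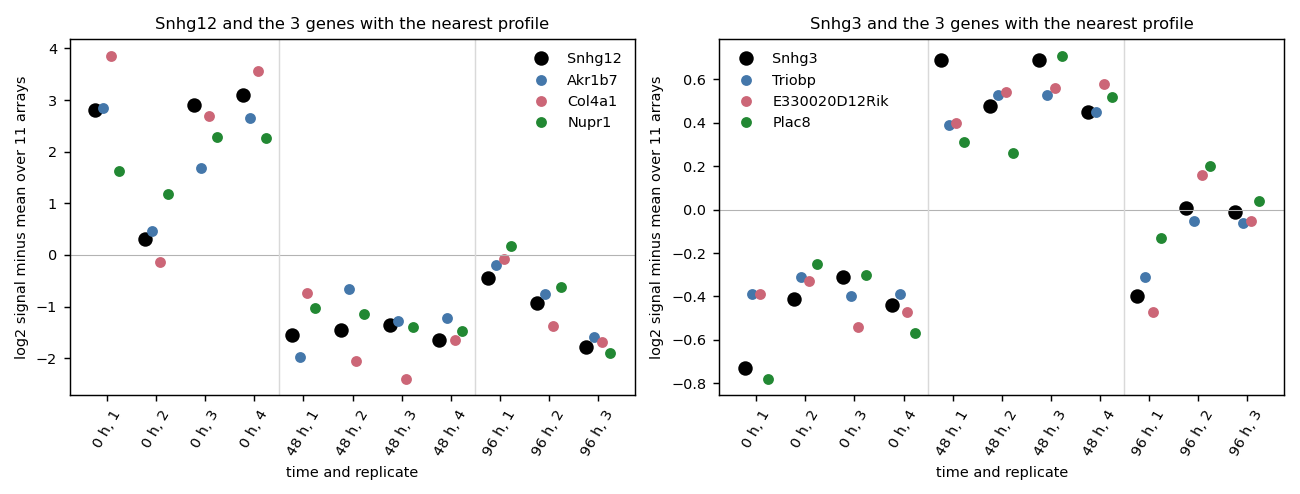
Log2 signal less the gene's mean over 11 arrays (y axis) on each array (x axis, time and replicate, grey lines between times) for Snhg12 (left) and Snhg3 (right) with the 3 genes of smallest distance, which lie at 0.51 to 0.61 from Snhg12 and 0.16 to 0.18 from Snhg3. The points of Snhg12, Akr1b7 and Col4a1 are lower on 0 h replicate 2 than on the other 0 h arrays by more than those of Nupr1, and those of Snhg3 are highest at 48 h.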

How the data were processed

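Total RNA of 11 samples was hybridised to 1-colour arrays of a design built on mm9. Agilent Feature Extraction 11.0.1.1 read the scans, per the file headers. The deposited processed signal is a spot intensity, corrected for background on its own array with no scaling across arrays. The deposited median pixel intensity of spots and local background served the normexp alternative, and deposited 0 or 1 flags mark spots above background, outlier spots and saturated spots. The authors' deposited log2 table is credited to limma by the submitters' processing notes, with no version given. Its columns correlated at 0.999984 with scanner values after normexp (offset 50) and quantile normalization, without centring, and had medians of 6.17 to 6.19.

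Control spots and outlier spots were left out, spots of a probe averaged, and probes named through RefSeq accessions (27656 of 55681 matched). Probes above background on at least 3 arrays were kept (34274), and the brightest stood for a gene. The fit was limma 3.58.1 (lmFit, eBayes, R 4.3.3, the data.table package, 1.17.8) over 11 arrays in 3 groups, with Benjamini-Hochberg adjustment over 25082 features. It was tested on simulated data. Figures used Python 3.11.15, numpy 2.4.6, pandas 2.3.3 and matplotlib 3.10.9. Ratios between genes on an array carry the SE of a difference of group means.

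The members and gene lists were chosen with earlier results of these data known. Named besides the members were, per list, up to 4 genes called lower and 4 called higher at 48 h and at 96 h with the largest differences, tested noncoding hosts, neighbours, and the 3 nearest profiles of Snhg12, Snhg1, Snhg3 and Dancr. Alternatives covered scaling, background correction, filters, probe choice, blocks and each array left out. Deviations from group means of arrays with the same number correlated at 0.14 to 0.28 between 0 h and 48 h, so these numbers were taken to pair arrays. The number in an array's file name was also its column on the slide, and at 0 h and 48 h the title numbers were the same. A shared line and a shared slide column therefore cannot be told apart, and pairing here means only that deviations correlated. Numbers in the 96 h titles did not pair (-0.04 to 0.36 against 0 h), while those in the file names of the 96 h arrays did (0.12 to 0.36 against 0 h, 0.23 to 0.30 against 48 h). The replicate block used the title numbers, so it joined 96 h arrays that did not pair. The labels name no separate cultures beyond the 4 lines of the series description, so p-values measure the spread between these arrays. 1 marker of other cell types is not reported here.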

Additional observations from a re-analysis of the deposited data

Results flagged for a closer look

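In 88 groups of 4 arrays, 7 had an array that lay apart from the others, where chance gives about 1 in 20 groups. Among the members this was Snhg12 on 0 h replicate 2, at 3.21 against 5.71 to 6.00 on the other untreated arrays. On the same array Trnau1ap, the neighbour of Snhg12, read 4.44 against 4.58 to 4.6, Myo1g, the neighbour of Snhg15, read 6.61 against 6.93 or more, and Triobp read 1.72 against 1.62 to 1.63. The rest were Slc3a2 at 6.55 on 0 h replicate 3, Upf3b at 1.08 on 48 h replicate 3, and Myo1g at 6.40 on 48 h replicate 4.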

How the results depend on the processing

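The falls of Snhg12, Snhg1, Snhg5 and Snhg16 (brighter probe) and the rise of Snhg3 at 48 h kept sign and call in 23 of 23 alternatives; with the dimmer Snhg16 probe, an alternative added after seeing the data, Snhg16 stood at 0.89 and 0.32. Leaving out 1 array at a time gave 4 to 7 members lower at 48 h against 0 h, 3 to 6 at 96 h against 0 h, and 0 to 1 at 96 h against 48 h. Of all 25082 features, 1055 to 2461, 221 to 1335 and 586 to 1561 were lower in these comparisons. With all arrays these were 2012, 848 and 1493. Members higher at 48 h numbered 2 in the deposited table and at 96 h 1 with normexp correction, beside 2195 and 2093 of all features. Members lower at 96 h numbered 1 with only the compared groups fitted, beside 106 of all features. At 96 h against 48 h they numbered 0 with median scaling, beside 762. With the replicate block, 5 members were lower at 48 h and 4 at 96 h, beside 1688 and 441 of all features. With pairing by the numbers in the file names these were 6 and 6, beside 2316 and 1366.

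Genes of the other lists, counted together, moved more. Higher at 48 h (2) became 0 with median scaling, 9 with the percentile over detected probes, 4 with normexp, 1 with no filter, 4 with the strict filter, 1 with the compared groups alone and 1 with the replicate block (1 to 3 leaving out arrays). Higher at 96 h (0) became 6 with normexp, 1 in the deposited table and 1 with probe means (0 to 1). Higher at 96 h against 48 h (1) became 0, 2, 24, 10, 4 and 0 with median scaling, the detected percentile, normexp, the deposited table, the strict filter and probe means (0 to 2). Lower at 48 h (12) became 27 with normexp and 21 in the deposited table (7 to 18). Lower at 96 h (5) became 19 with median scaling, 10 in the deposited table, 2 with no filter, 10 with the strict filter, 1 with the compared groups alone, 2 with the replicate block and 18 with the file-name block (2 to 12). Lower at 96 h against 48 h (14) became 2, 2, 4, 7, 7 and 4 with median scaling, quantile normalization, the deposited table, no filter, probe means and the replicate block (2 to 15). Signs turned for Egf (-0.60), St6galnac2 (-0.56) and Wdr43 (0.27) at 96 h against 48 h and St6galnac2 at 48 h (0.30) with normexp, and E330020D12Rik at 96 h against 48 h was 0.00 with probe means. Over all features at 48 h, 2012 were lower and 2644 higher, against 1931 and 424 with median scaling, 2202 and 1849 with quantile normalization, 1725 and 3623 with the detected percentile, 3587 and 9054 with normexp, and 2687 and 2195 in the deposited table. The causes were not tested.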
